A study of Homo sapiens with 2 samples.

Results

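The genes described here are the interferon-stimulated genes of the IFIT, IFITM, OAS, MX, IFI and ISG groups, the interferon regulatory factors (IRFs), the signal transducers and activators of transcription (STATs) and the 4 receptor subunits for type I interferon and for interferon gamma. They were picked by a rule on gene symbols, written with earlier results of these data known, and 47 of the 53737 genes in the tables met the rule, all of them protein-coding. They were measured in an established line of Ewing sarcoma, a bone and soft tissue tumour, that is named SK-ES-1 and labelled wild type, with 1 RNA library of slow-cycling cells (SCCs) and 1 of non-slow-cycling cells (non-SCCs). No treatment is named for either fraction. The column headers call the fractions LRC and non-LRC without explaining these terms, and the way the cells were separated is not given in the sources used here.

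Interferons bind cell surface receptors that switch on the kinases JAK1, TYK2 and JAK2, which then phosphorylate STAT proteins. Type I interferon assembles the factor ISGF3, which holds STAT2 and IRF9 and binds the interferon-stimulated response element, while interferon gamma drives STAT dimers to the gamma-activated site. The target genes encode RNA sensors, proteins that block viral entry, translation or release, and further IRFs and STATs, and many tumour lines transcribe part of this programme without added interferon.

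Among the 27 members that reached the minimum level for testing, which was 1 per-million unit in at least 1 library, the transcription factor gene IRF1 and the RNA-activated enzyme gene OAS3 were at least 1.5-fold higher in slow-cycling cells and no member was at least 1.5-fold lower. Over all 13444 genes tested, 5.38% were higher and 1.41% lower by this measure. The members' shares were 7.41% and 0%, so the count of members was near the background. Folds are counted on the log2(level + 1) scale, where no member reached 2-fold, a difference that 1.9% of all genes tested passed upwards and 0.431% downwards. The median log2 ratio of the 27 was 0.09, against 0.03 over all genes tested, and 19 of the 27 had a ratio above 0 (70.4%, against 56.2% of all genes tested). Within 0.1 of 0 on the log2 scale lay 10 of the 27 (37.0%), and 36.7% of all genes tested.

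Each ratio is the log2(level + 1) of the slow-cycling library minus that of the non-slow-cycling library. With 1 library per group, no ratio has a replicate check and no test was made, so the words higher and lower compare 2 libraries. This scale understates the differences of low genes: the level of IRF1 itself was 2.49 times and that of IRF2 1.65 times as high in slow-cycling cells. Levels are in per-million units whose sums, 983638 for slow-cycling cells and 984120 for non-slow-cycling cells, lie near those of TPM values, a unit corrected for gene length, but the scale is not stated in the files. The read depth behind them is unknown. In a bulk library, fewer cells of a type and less RNA per cell cannot be told apart.

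All 9 markers of Ewing sarcoma looked at were tested, 4 with a ratio above 0 and 5 below, and none was 1.5-fold apart. CD99 was at 213 per-million units in slow-cycling and 245 in non-slow-cycling cells, and LIPI at 117 and 99.4. NR0B1 had the lowest log2 ratio of the 9, -0.30, at percentile 4.61 of genes of like level. LIPI had the highest, 0.24, at percentile 95.2. Of genes of like level to these markers, 0.893% were at least 1.5-fold higher in slow-cycling cells. Of the 8 leukocyte markers, PTPRC, CD3E, MS4A1 and ITGAM were listed at 0 in both libraries. CD14 was at or near 0, LYZ was at 8.45 in slow-cycling and 6.66 in non-slow-cycling cells and CD68 at 4.36 and 2.28, and the whole list summed to 15.5 in slow-cycling and 9.66 in non-slow-cycling cells. The 3 leukocyte markers tested had ratios above 0, and 2 of them were at least 1.5-fold higher in slow-cycling cells. That is 66.7%, against 5.38% of all genes tested and 12.2% of genes of like level to CD68. All 4 endothelial markers were listed at 0 in both libraries, and of 3 plasmacytoid dendritic cell markers CLEC4C and LILRA4 were. The 6 markers of fibroblasts and pericytes summed to 82.3 in slow-cycling and 61.6 in non-slow-cycling cells. LUM was at or near 0, and the 5 tested were all above 0 in ratio (median 0.36 on the log2 scale). FAP (0.77) and COL1A1 (0.96) were at least 1.5-fold higher in slow-cycling cells (40% of those tested, against 5.38% of all genes tested). FAP was at 3.67 in slow-cycling and 1.74 in non-slow-cycling cells, and COL1A1 at 3.19 and 1.15. Of genes of like level, 12.2% for FAP and 21.0% for COL1A1 were at least 1.5-fold higher. THY1, the most abundant of the list, was at 52.5 in slow-cycling and 41.2 in non-slow-cycling cells and was not 1.5-fold apart. Of 4 epithelial markers, CDH1 was listed at 0 in both libraries. The 3 tested had 2 ratios above 0 and 1 below, and none was 1.5-fold apart. KRT18, the most abundant of them, was at 15.3 in slow-cycling and 17.1 in non-slow-cycling cells, a log2 ratio of -0.15. The part of these marker differences in the results below was not tested.

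The members differed far more from each other in level than between the fractions. Genes in general did so: over all genes tested, the libraries had a Pearson correlation of 0.987 on the log2(level + 1) scale. In both libraries 16 of the 47 were listed at 0, a share of 34.0%, against 34.6% of the 19359 protein-coding genes. Among them were IRF4, IRF5, IRF7, IRF8, STAT4, STAT5A, IFIT1B, IFIT2, IFITM10, OAS2, OASL, MX1, IFI35, ISG20 and IFIH1. A listed 0 can be a failed estimate: the genes of the 13 proteins encoded by the mitochondrial genome, on which respiration depends in any cell, had a 0 in both tables too. A further 4 members, DDX58, OAS1, IFI27 and IFITM5, were above 0 but under the minimum level. All 27 members tested reached the minimum level in both libraries, so none entered through 1 library alone.

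**Figure D1:**
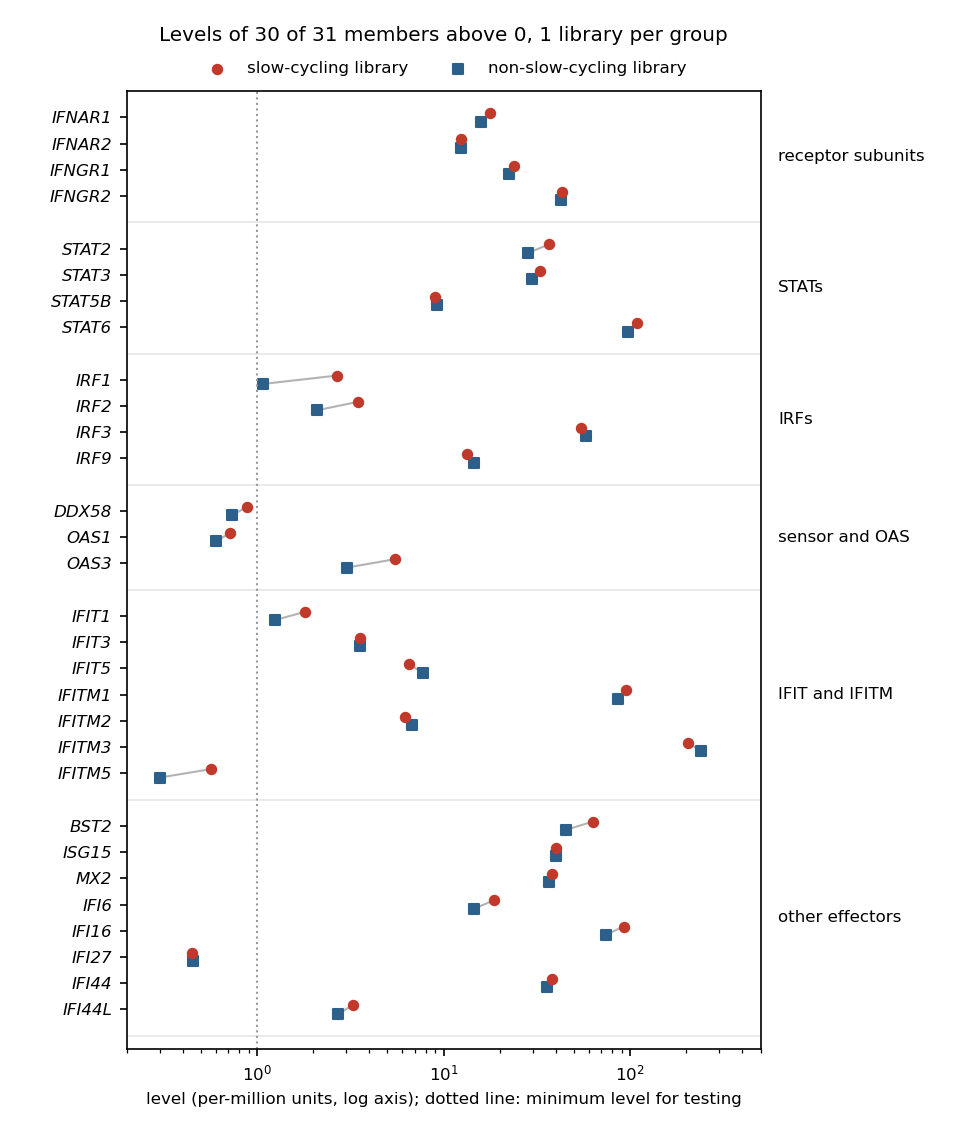
Levels of 30 of the 31 members above 0 in per-million units on a log axis, with the slow-cycling library as circles and the non-slow-cycling library as squares, 1 library each and no error bars, since there are no replicates. IFITM3 is the highest member at 205 and 239.7 per-million units, and the gaps between libraries are widest for members under 10 per-million units, such as IRF1, OAS3 and IFITM5.

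ISGF3 and STAT dimers are known to bind short elements in the promoters of their target genes, and stretches of 7 promoters are shown because their genes span the range from the highest ratio to a gene listed at 0. Each line gives 30 bases upstream of the RefSeq start site, on the gene's strand, with capitals for matches to the core of the interferon-stimulated response element (GAAA, any pair of bases, GAAA), read on both strands, or to TTCNNNGAA, the core of the gamma-activated site, which reads alike on both strands. The sequences are from RefSeq on GRCh38.p14.
IRF1 (chr5:132490878-132490907, minus strand): acagcctgatTTCCCCGAAatgacggcacg
OAS3 (chr12:112938444-112938473, plus strand): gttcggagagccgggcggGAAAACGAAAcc
BST2 (chr19:17405741-17405770, minus strand): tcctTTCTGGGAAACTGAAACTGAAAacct
ISG15 (chr1:1013377-1013406, plus strand): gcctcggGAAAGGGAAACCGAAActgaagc
IFITM3 (chr11:320884-320913, minus strand): gGAAAAGGAAActgttgaGAAACCGAAAct
IFIT1 (chr10:89392504-89392533, plus strand): tagTTTCACTTTCcccTTTCGGTTTCccta
IFIH1 (chr2:162318821-162318850, minus strand): aattcgcTTTCCTTTTCTGTTTCccgcggt
The IRF1 stretch holds a gamma-activated site core and no response element core. In BST2, a gamma-activated site core runs into 2 overlapping response element cores, and in ISG15 and IFIH1 a pair of response element cores overlaps.

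Promoter windows of 300 bases, with 250 before and 50 after the start site, were matched for 35 of the 47 members, some with several start sites. Of the members' 50 windows, 19 held the response element core (38%), against 3.57% of all 35116 windows, and 9 held the gamma-activated site core (18%), against 7.66%. By gene, 15 of the 35 members held the response element core (42.9%, against 4.38% of all genes with a window). The 11 tested members with the core had a median log2 ratio of 0.13, between -0.22 and 0.68, and the 10 tested members without it had a median of 0.14, between -0.13 and 0.83. Of the 15 members with the core, 3 were listed at 0 in both libraries (IFIH1, ISG20 and MX1). Of the 20 members without it, 7 were, and 34.6% of all protein-coding genes were. A match of letters describes the sequence and is not a binding site.

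The receptor subunits had like levels in both fractions. IFNAR1, the signalling chain of the type I interferon receptor on chromosome 21, was at 17.6 per-million units in slow-cycling and 15.8 in non-slow-cycling cells, a log2 ratio of 0.15. Its partner IFNAR2, the chain that binds interferon first, was at 12.4 in both libraries. IFNGR1, which binds interferon gamma, was at 23.7 in slow-cycling and 22.4 in non-slow-cycling cells. IFNGR2, the chain that carries JAK2, was at 43.1 in slow-cycling and 42.8 in non-slow-cycling cells. The 4 ratios lay between -0.0026 and 0.15, within the middle 50% of all genes tested, which ran from -0.10 to 0.19.

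Among the kinases, JAK1, which serves both receptors, was at 240 per-million units in slow-cycling and 199.8 in non-slow-cycling cells, a log2 ratio of 0.26. This ratio was at percentile 95.4 of genes of like level, of which 0.893% were at least 1.5-fold higher. TYK2, the other kinase of the type I receptor, was at 49.4 in slow-cycling and 47.9 in non-slow-cycling cells. Of the list of 6 other receptors and kinases, which also holds JAK2, JAK3, IL10RB and IFNLR1, all 6 were tested and none was 1.5-fold apart. No ligand was measured above 0: all 21 interferon genes looked at, among them IFNB1, IFNG and the alpha and lambda interferons, were listed at 0 in both libraries.

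None of the 5 tested STATs was 1.5-fold apart, and STAT2 had the largest ratio. STAT2, the subunit that gives ISGF3 its activation domain, was at 36.6 per-million units in slow-cycling and 28.5 in non-slow-cycling cells. Its log2 ratio was 0.35, at percentile 96.3 of the 672 genes of like level. IRF9, its DNA-binding partner in ISGF3, was at 13.3 in slow-cycling and 14.6 in non-slow-cycling cells. The log2 ratio of IRF9 was -0.13, at percentile 17.0 of genes of like level. These partners thus had ratios on opposite sides of 0.

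STAT6, the mediator of interleukin 4 and interleukin 13 signalling, was the most abundant STAT, at 108 per-million units in slow-cycling and 97.0 in non-slow-cycling cells, a log2 ratio of 0.16. The interleukin 4 receptor gene IL4R was listed at 0 in both libraries, while IL13RA1, which can pair with it, was at 2.87 in slow-cycling and 2.06 in non-slow-cycling cells. STAT3, used by the interleukin 6 family, was at 32.7 in slow-cycling and 29.9 in non-slow-cycling cells. STAT5B, used by growth hormone and prolactin, was at 9.03 in slow-cycling and 9.22 in non-slow-cycling cells. Its close relative STAT5A was listed at 0 in both. In GENCODE release 29, 10.3% of the 50-base stretches in STAT5A transcripts also occur in STAT5B transcripts, so reads of these stretches can be assigned to either.

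IRF1 had the largest ratio of all members. This activator, which interferon gamma induces and which restrains growth in many cell types, was at 2.67 per-million units in slow-cycling and 1.07 in non-slow-cycling cells, a log2 ratio of 0.83. IRF2, which binds the same sites and often opposes IRF1, was at 3.47 in slow-cycling and 2.10 in non-slow-cycling cells, a log2 ratio of 0.53. Both lay at low levels, where such ratios were common. Of the 672 genes of like level to IRF1, 21.0% were at least 1.5-fold higher in slow-cycling cells, and of the 672 of like level to IRF2, 12.2% were. IRF1 was at percentile 89.4 and IRF2 at percentile 86.2 of the ratios among these genes.

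The abundant IRF was IRF3, the latent factor that TBK1 activates when viral nucleic acid is sensed. It was at 54.4 per-million units in slow-cycling and 58.0 in non-slow-cycling cells, a log2 ratio of -0.09. IRF7, its interferon-induced relative, was listed at 0 in both libraries. So were IRF4 and IRF8, factors of lymphoid and myeloid cells, and IRF5.

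**Figure D2:**
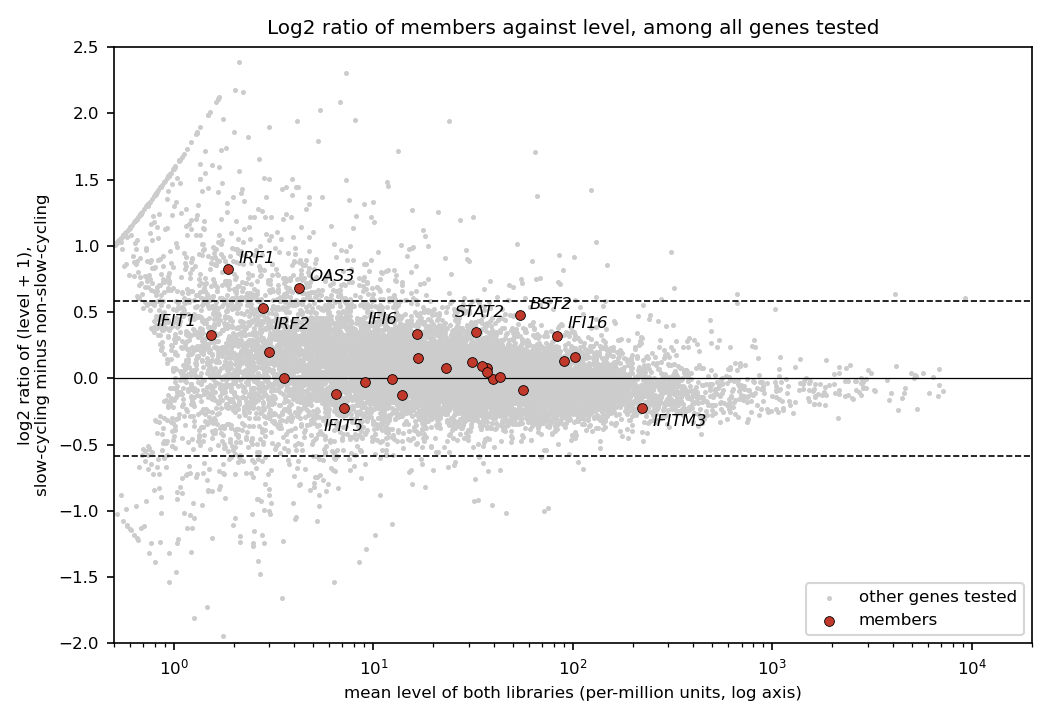
Log2 ratio of (level + 1), slow-cycling minus non-slow-cycling, of the 27 tested members (red) and of the other genes tested (grey) against the mean level of both libraries on a log axis, with dashed lines at 1.5-fold; 14 genes lie outside the axes. IRF1 at 0.83 and OAS3 at 0.68 are the members above the upper line, at levels where the grey points spread most, and no member is below the lower line.

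The viral RNA sensor genes DDX58 and IFIH1 were at or near the floor of the values, where a listed 0 can be a failed estimate. DDX58, which encodes RIG-I, was at 0.886 per-million units in slow-cycling and 0.734 in non-slow-cycling cells, and IFIH1, which encodes MDA5, was listed at 0 in both. Several adaptors and kinases below them were measured at higher levels, while the kinase gene IKBKE was listed at 0 in both. MAVS, the mitochondrial adaptor of both sensors, was at 25.6 in slow-cycling and 23.1 in non-slow-cycling cells, and TBK1 at 39.4 and 38.7. Of 24 genes of sensing and adaptors, 9 were listed at 0 in both libraries, 14 were tested and none was 1.5-fold apart in either direction, with a median log2 ratio of 0.00. The most abundant were IRAK1, a kinase of Toll-like receptor signalling, at 142 in slow-cycling and 155 in non-slow-cycling cells, and the TBK1-binding protein gene TBKBP1, at 52.5 and 55.1.

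The OAS proteins make a short oligoadenylate in response to double-stranded RNA, which activates RNase L. OAS3 was at 5.46 per-million units in slow-cycling and 3.02 in non-slow-cycling cells, a ratio of levels of 1.81 and a log2 ratio of 0.68. Of the 672 genes of like level, 10.7% were at least 1.5-fold higher in slow-cycling cells, and OAS3 was at percentile 92.4 of them. OAS1 was at 0.716 in slow-cycling and 0.601 in non-slow-cycling cells, and OAS2 and OASL were listed at 0 in both. OAS3 shares no 50-base stretch with the other 3 genes in GENCODE transcripts.

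The IFIT genes, whose proteins bind viral RNA and block its translation, showed no common direction. IFIT1 was at 1.82 per-million units in slow-cycling and 1.24 in non-slow-cycling cells, a log2 ratio of 0.33. IFIT3 was at 3.56 in slow-cycling and 3.55 in non-slow-cycling cells. IFIT5 was at 6.49 in slow-cycling and 7.75 in non-slow-cycling cells. Its log2 ratio of -0.22, at percentile 9.97 of genes of like level, was the lowest of all 27. The 3 genes thus covered a range from below 0 to above it.

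The IFITM genes, whose membrane proteins hinder the fusion of viruses with cells, held the most abundant member. IFITM3 was at 205 per-million units in slow-cycling and 239.7 in non-slow-cycling cells. Its log2 ratio was -0.22, at percentile 13.8 of genes of like level. IFITM1 was at 94.5 in slow-cycling and 86.3 in non-slow-cycling cells, a ratio of 0.13. IFITM2 was at 6.17 in slow-cycling and 6.80 in non-slow-cycling cells, a ratio of -0.12 at percentile 18.75 of its level. The split between these 3 genes is uncertain, since 24.7% of the 50-base stretches in IFITM2 transcripts also occur in IFITM1 and 11% in IFITM3. Their summed level, which depends less on that split, was 306 in slow-cycling and 333 in non-slow-cycling cells. IFITM5, known as a gene of bone-forming cells, was at 0.565 in slow-cycling and 0.302 in non-slow-cycling cells, under the minimum level.

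Of the remaining effectors, BST2 had the largest ratio at a high level. It encodes tetherin, which holds budding viruses at the cell surface, and was at 63.0 per-million units in slow-cycling and 45.1 in non-slow-cycling cells, a log2 ratio of 0.48. That is percentile 98.7 of the 673 genes of like level, of which 0.743% were at least 1.5-fold higher. IFI16, a nuclear DNA-binding sensor, was at 92.3 in slow-cycling and 73.9 in non-slow-cycling cells, a ratio of 0.32 at percentile 96.9 of its level. IFI6, an antiviral membrane protein gene, was at 18.6 in slow-cycling and 14.6 in non-slow-cycling cells, a ratio of 0.33 at percentile 91.1.

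Several classical interferon-stimulated genes lay level between the fractions. ISG15, a ubiquitin-like protein gene, was at 39.9 per-million units in slow-cycling and 40.0 in non-slow-cycling cells. MX2, a GTPase that blocks viral nuclear entry, was at 37.9 in slow-cycling and 36.7 in non-slow-cycling cells, and its relative MX1 was listed at 0 in both. IFI44 was at 38.0 in slow-cycling and 35.9 in non-slow-cycling cells, and its neighbour IFI44L was at 3.27 and 2.72. IFI27 was at 0.446 in slow-cycling and 0.454 in non-slow-cycling cells. The log2 ratios of ISG15, MX2 and IFI44 lay between -0.0041 and 0.08.

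At a lower threshold, a log2 ratio of 0.322, 7 of the 27 members were higher in slow-cycling cells (25.9%) and none lower, against 13.5% and 4.99% of all genes tested. The 7 were IRF1, OAS3, IRF2, BST2, STAT2, IFI6 and IFIT1, with IFIT1 (0.329) just inside, and IFI16 (0.318) was just outside. Of the 7, 4 had a level under 10 per-million units in a library. Ratios moved with level: the median log2 ratio was 0.23 for the 734 genes tested whose mean level was between 1 and 2 per-million units, and -0.06 for the 2712 at 64 or more.

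Other interferon-stimulated genes, from a list of 77 that holds none of the members, had more ratios above 0 than below. Of these, 40 were tested and 28 had a 0 in both libraries. Of the 40, 32 had a ratio above 0, against 56.2% of all genes tested, and their median log2 ratio was 0.21, against 0.03. Their median level, 9.31 per-million units, was under the 21.3 of all genes tested and the 23.1 of the tested members, and ratios ran higher at low levels. In slow-cycling cells 5 were at least 1.5-fold higher (12.5%, against 5.38% of all genes tested) and none was 1.5-fold lower. GBP1, a guanylate-binding GTPase gene strongly induced by interferon gamma, was at 3.95 per-million units in slow-cycling and 1.48 in non-slow-cycling cells, a log2 ratio of 0.997. Its relatives GBP2, GBP3 and GBP5 were listed at 0 in both libraries. GBP4 was under the minimum level, at 0.188 in slow-cycling and 0.257 in non-slow-cycling cells. HERC5, the ligase that attaches ISG15 to proteins, was at 5.51 in slow-cycling and 2.52 in non-slow-cycling cells, a ratio of 0.89.

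The other 3 genes of this list that were at least 1.5-fold higher were also at low levels. APOBEC3G, a cytidine deaminase gene, was at 4.002 per-million units in slow-cycling and 2.06 in non-slow-cycling cells, APOL2 at 3.09 and 1.12, and TRIM14 at 1.82 and 0.0581. The APOBEC3 and APOL genes have close relatives that can share reads, so those 2 values are uncertain. Among genes of like level, the share at least 1.5-fold higher was 10.7% for HERC5, 12.2% for GBP1 and APOBEC3G, 21.0% for APOL2 and 37.9% for TRIM14. The most abundant of the list were not 1.5-fold apart. B2M, the light chain of MHC class I, was at 889 in slow-cycling and 799 in non-slow-cycling cells. LY6E was at 385 and 435, and the RNA editing enzyme gene ADAR at 175 and 159.6. Their log2 ratios were 0.15 for B2M, -0.18 for LY6E and 0.13 for ADAR, at percentiles 91.4, 22.8 and 89.1 of genes of like level.

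Among 17 negative regulators, 14 were tested and 1 of them, SOCS3, was 1.5-fold apart (7.14%, near the 5.38% of all genes tested). SOCS3, which inhibits JAK kinases bound to receptors of the interleukin 6 family, was at 21.1 per-million units in slow-cycling and 10.1 in non-slow-cycling cells. Its log2 ratio of 0.99 was at percentile 99.6 of genes of like level, of which 1.93% were at least 1.5-fold higher. SOCS1, the main inhibitor of interferon receptors, was listed at 0 in both libraries. USP18, an interferon-induced protease that removes ISG15 and dampens the type I receptor, was at 12.3 in slow-cycling and 10.4 in non-slow-cycling cells. The abundant PTPN11, a phosphatase gene, was at 129 in both libraries, PIAS3, an inhibitor of STAT3, was at 99.99 in slow-cycling and 95.1 in non-slow-cycling cells, and the phosphatase gene PTPN1 was at 52.6 and 53.3.

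Of 21 cytokine receptors upstream of STATs, 8 were tested and 13 had a 0 in both libraries. The 8 had a median log2 ratio of 0.26, against 0.03 over all genes tested, with none 1.5-fold apart. Their median level, 10.4 per-million units, was under the 21.3 of all genes tested, and ratios ran higher at low levels. IL11RA was at 61.3 per-million units in slow-cycling and 49.7 in non-slow-cycling cells, the leukaemia inhibitory factor receptor LIFR at 26.8 and 22.6, and the erythropoietin receptor EPOR at 22.1 and 22.9. Of 14 targets of STAT3 and STAT5, 12 were tested and 2 were at least 1.5-fold higher (16.7%, against 5.38% of all genes tested). These were SOCS3, already counted among the negative regulators, and the AP-1 gene JUNB, which was at 192 in slow-cycling and 106 in non-slow-cycling cells. The median level of the 12, 66.9 per-million units, was above the 21.3 of all genes tested. Of genes of like level, 1.93% for SOCS3 and 0.595% for JUNB were at least 1.5-fold higher. The survival gene MCL1 was at 277 in slow-cycling and 203 in non-slow-cycling cells, FOS at 561 and 413, and MYC at 375 and 381. Among genes of like level, JUNB was at percentile 99.7, MCL1 at 98.4, FOS at 98.2 and MYC at 69.2. FOS, JUNB, MYC and SOCS3 are also known as genes that serum and handling induce rapidly.

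**Figure D3:**
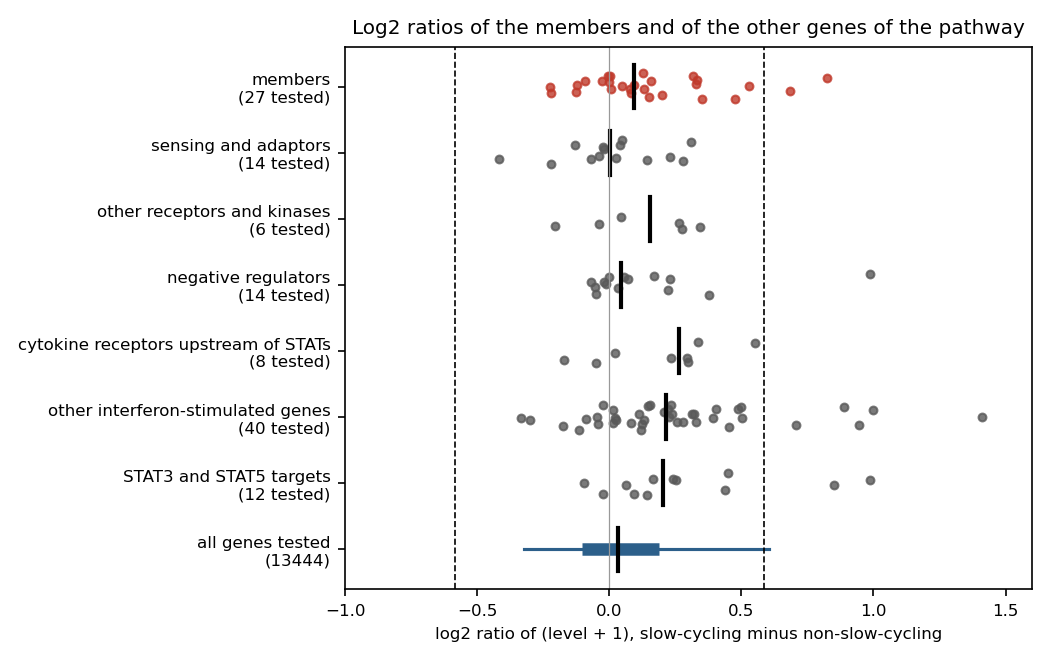
Log2 ratio of (level + 1), slow-cycling minus non-slow-cycling, with 1 point per tested gene for the members (red) and for 6 lists of other pathway genes (grey); points are spread vertically for legibility, black bars are medians and dashed lines mark 1.5-fold. For all 13444 genes tested, the thick bar spans the middle 50% (-0.10 to 0.19) and the thin line the 5th to 95th percentiles (-0.32 to 0.60). The median of the other interferon-stimulated genes (0.21) is right of that of the members (0.09), and SOCS3 is the right-most negative regulator.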

How the data were processed

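The authors deposited 1 table per library, with a gene symbol, an Entrez gene ID and a value called normalized per the file headers. The deposited values were taken as log2 values of a per-million unit with 1 added, from their range (0 to 15.6 and 15.2) and sums. The submitters' processing notes name build hg38, while aligner, counting tool and annotation are not stated in the labels or headers. Libraries were made with a stranded kit that selects polyadenylated RNA, per the labels' protocols.

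Each value was back-transformed as 2 raised to it, minus 1, and 174 lines with a locus suffix were summed by gene ID, from 53826 lines to 53737 genes, of which 51248 matched RefSeq (GRCh38.p14). Genes that reached 1 per-million unit in either library were tested, in the sense of counted by fold (1.5, a lower one or 2); no p-value was computed. Genes of like level are those in the same of 20 equal bins of mean level. The code that counts genes by fold was tested on simulated data with known shifts, which is no check of the members' counts. The alternatives were 2 scalings, 4 filters, a pseudocount of 0.1, removal of the trend with level, protein-coding genes alone and other folds. Members are named, apart from some items not reported here; of other lists, genes past 1.5-fold and the 3 most abundant are, and a few more were chosen after their values were seen. Members and lists were chosen with earlier results of these data known. Python 3.11.15, pandas 2.3.3 and matplotlib 3.10.9 were used.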

Additional observations from a re-analysis of the deposited data

How the results depend on the processing

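The count of members at least 1.5-fold higher, 2 as reported, was 1 with a minimum level of 5 per-million units, where IRF1 was no longer tested, and 1 after the median ratio of genes of like level was subtracted, where OAS3 had a log2 ratio of 0.54. It was 0 at a 2-fold and 7 at the lower threshold of 0.322, and 3 with a pseudocount of 0.1, where IRF2 had a ratio of 0.70. The background moved too: of all genes tested, 5.38% were higher as reported, 2.29% with that minimum level and 3.28% after that subtraction. The share was 1.9% at 2-fold, 13.5% at the lower threshold and 7.57% with that pseudocount. The count of members lower was 0 under every alternative run, where between 0.431% and 4.99% of all genes tested were lower. The median of the members lay between 0.06 and 0.13, and that of all genes tested between 0.00 and 0.07. Signs turned for IFIT3 and IFNGR2 with the median set to 0, for IFNAR2, ISG15 and STAT5B with upper quartile scaling, and for IFIT3 after subtraction of the like-level median, where it was -0.16; the other ratios that turned were within 0.04 of 0. Depth is unknown, so the limit it sets on low members such as IRF1 could not be computed. No paired analysis was possible because there is 1 library per group.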

Other observations

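Several members lie side by side in the genome, and several lie beside a gene listed at 0, which can be a failed estimate and is not read here as low expression. In the OAS cluster on chromosome 12, OAS3 (112938474 to 112973251, GRCh38.p14) was at 5.46 per-million units in slow-cycling and 3.02 in non-slow-cycling cells. OAS1 (112906962 to 112933219) on one side of it was under 1 in both libraries and OAS2 (112978519 to 113011723) on the other was listed at 0 in both. On chromosome 21, MX2 (41362027 to 41409393) was at 37.9 in slow-cycling and 36.7 in non-slow-cycling cells beside MX1 (41420558 to 41459214), listed at 0 in both. On chromosome 17, STAT3 (42313324 to 42388442) was at 32.7 and 29.9 and STAT5B (42199177 to 42288370) at 9.03 and 9.22, with STAT5A (42287439 to 42311943), listed at 0 in both, between them and overlapping the STAT5B interval.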
